A study of Mus musculus with 24 samples.

Results

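The genes described here encode proteins of the lipid droplet surface and the enzymes that take stored fat apart: Plin1, Plin2, Plin3, Plin4, Cidec, G0s2, Pnpla2, Abhd5, Lipe and Mgll. They were chosen by function, not by a measured value, and make up 10 of the 24346 genes in the RNA-seq count files of 3T3-L1 cells. LSD1 peaks over the bodies of the same 10 genes were taken from the ChIP-seq peak lists of the same study. 3T3-L1 is a line of mouse preadipocytes, which a hormone mix drives to become fat cells, and LSD1 is a histone demethylase encoded by Kdm1a.

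The 12 RNA-seq libraries form 4 groups of 3 biological replicates: control cells at day 0, control cells at day 7, cells labelled as LSD1 overexpression at day 0, and cells with that label at day 7. All were 3T3-L1 cells at passages 13 to 18. Day 0 cells were confluent and not yet induced. Day 7 cells had received 500 µM isobutylmethylxanthine, 10 µM rosiglitazone, 1 µM dexamethasone and 10 µg/ml insulin, and from day 3 on insulin alone at the same dose. Rosiglitazone is an agonist of the nuclear receptor PPARγ, so every day 7 group had been exposed to it. The construct, its promoter and the number of separately derived LSD1 lines are not given in the sources used here, so an effect of the label and another difference between lines cannot be told apart, and p-values may cover technical spread only. There was 1 LSD1 ChIP-seq sample for each of the 4 conditions and 1 Nrf1 sample for each day.

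Fat cells store triacylglycerol in droplets coated by perilipins, and the coat decides which proteins reach the fat. Pnpla2 (ATGL) removes the first fatty acid, Lipe (hormone-sensitive lipase, HSL) acts mainly on the resulting diacylglycerol, and Mgll (monoacylglycerol lipase) frees the last fatty acid. Abhd5 (CGI-58) activates ATGL and is held at the droplet by perilipin 1 until the cell is stimulated, while G0s2 inhibits ATGL. Cidec (FSP27) sits where droplets touch and lets small droplets merge into large ones.

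Kdm1a was read first as a check of the labels. It stood at 79.0, 86.3 and 84.1 CPM (read counts scaled to the depth of each library) in the control libraries and at 89.4, 104.2 and 99.0 CPM in the libraries labelled LSD1 at day 0. At day 7 it stood at 66.1, 67.6 and 74.5 CPM in control and at 54.3, 55.4 and 54.4 CPM in the labelled libraries. The label therefore went with a slightly higher Kdm1a at day 0 that did not pass the test (log2 difference 0.23, SE 0.0958, edgeR adjusted p = 0.0969) and with a lower one at day 7 (log2 difference -0.34, SE 0.0967, edgeR adjusted p = 0.00751). Each labelled library lay above each control library at day 0, and without labelled day 0 replicate 1 the difference there passed (log2 0.29, edgeR adjusted p = 0.0131). The groups are for this reason called by their label throughout, and each direction between them is a direction between labels.

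The libraries held 27512273 to 37565527 counts over all transcripts. The labelled day 0 replicate 1, just named, stood apart, with correlations of 0.955 and 0.957 to the other libraries of its group, whereas those correlated at 0.993 and the other groups at 0.988 to 0.992. Calls on the 10 genes that change without it are given beside the result. Summed over the marker list of adipocytes (10 genes, among them Adipoq, Fabp4 and Pparg), levels ranged from 667.4 to 844.5 CPM in control at day 0, 9725 to 11450 CPM in control at day 7, 495.1 to 622.6 CPM in labelled libraries at day 0 and 24310 to 31820 CPM in labelled libraries at day 7. Of these markers Lep alone was at 0 in every group except control at day 7. The 9 markers of preadipocytes or fibroblasts summed to 34140 to 36690, 8451 to 8805, 14390 to 19160 and 1263 to 1313 CPM in the same order. Macrophage markers summed to at most 4.126 CPM in any library, with Adgre1 at 0 counts in every group, and endothelial markers to at most 2.552 CPM. Bone or cartilage markers (6 genes) summed to 253.1 to 289.9, 116.6 to 153.0, 222.4 to 256.2 and 34.42 to 38.89 CPM in that order, with Acan at 0. Muscle markers (6 genes) summed to 4.357 to 6.109, 12.74 to 15.59, 6.863 to 17.81 and 33.54 to 44.1 CPM, with Myod1 and Myog at 0, and brown fat markers to at most 1.397 CPM. The sums of the adipocyte, preadipocyte, bone or cartilage and muscle lists thus moved with the day and, at day 7, with the label. At day 0 the adipocyte and preadipocyte sums also lay wholly lower with the label and the muscle sums wholly higher. The bone or cartilage sums overlapped there. The adipocyte sums were led by few genes, with Lpl at 677.0 CPM in control at day 0 and Fabp4 at 13752 CPM in labelled libraries at day 7. Single genes differed from their sums. At day 7 Retn stood at 67.5 CPM in control and 24.7 CPM with the label, where 7 of 9 tested adipocyte markers were called higher. Pdgfra rose by 0.72 on the log2 scale over time in control, where 8 of 9 preadipocyte markers were called lower. The part of these lists in the results was not tested. In these bulk samples fewer cells of a type and less RNA per cell cannot be told apart.

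Promoter sequence is shown for 7 members, to set genes with an LSD1 peak at the start site in 1 list beside genes with one in 3 or 4 lists. The windows are the 200 bases before the transcription start site, from RefSeq on GRCm38.p6, written 5′ to 3′ along the gene's strand. All 10 members had a window in the table, and 13 windows covered their start sites. The following 3 belong to genes whose start site lay under an LSD1 peak only in the list of labelled cells at day 7: Plin1 (chr7:79732777-79732976, minus strand), Cidec at its upstream start site (chr6:113435761-113435960, minus strand) and G0s2 (chr1:193273189-193273388, minus strand).
Plin1: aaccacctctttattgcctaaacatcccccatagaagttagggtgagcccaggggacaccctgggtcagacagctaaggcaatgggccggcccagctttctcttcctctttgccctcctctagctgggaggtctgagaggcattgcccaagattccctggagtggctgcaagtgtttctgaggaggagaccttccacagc
Cidec: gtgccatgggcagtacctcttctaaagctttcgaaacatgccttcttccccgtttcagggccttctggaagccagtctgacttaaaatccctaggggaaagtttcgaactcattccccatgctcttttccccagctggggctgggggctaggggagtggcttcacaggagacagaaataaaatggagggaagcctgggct
G0s2: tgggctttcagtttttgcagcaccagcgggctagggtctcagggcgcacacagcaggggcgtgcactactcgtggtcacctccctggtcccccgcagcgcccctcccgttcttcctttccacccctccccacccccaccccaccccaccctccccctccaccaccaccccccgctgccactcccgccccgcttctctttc
None of these 3 windows held any of the motifs searched. The Plin1 window had 1 CG dinucleotide, the Cidec window 3 and the G0s2 window 10. The windows shown next had 6 (Plin2), 7 (Plin3), 5 (Plin4) and 21 (Abhd5), so the CG counts of the 2 sets overlapped.

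Of the next 4 windows, 3 belong to genes whose start site lay under an LSD1 peak in all 4 lists, namely Abhd5 (chr9:122351416-122351615, plus strand), Plin3 (chr17:56290512-56290711, minus strand) and Plin4 (chr17:56109783-56109982, minus strand). The other belongs to Plin2 (chr4:86670060-86670259, minus strand), whose start site lay under a peak in every list except control at day 0. Pnpla2 and Lipe also had a start-site peak in every list except control at day 0. Their windows are not shown and held none of the motifs searched. Capitals mark a CCAAT box, or its reverse ATTGG, in the 3 perilipin windows and the NRF1 core GCGCATGC in the Abhd5 window. An AGGTCA on the minus strand of the Abhd5 window, from base -69 to base -64 relative to the start site, is left in lower case.
Plin2: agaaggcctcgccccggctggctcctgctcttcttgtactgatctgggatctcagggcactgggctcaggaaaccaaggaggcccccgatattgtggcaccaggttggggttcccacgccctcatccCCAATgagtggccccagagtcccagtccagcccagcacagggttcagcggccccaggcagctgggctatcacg
Plin3: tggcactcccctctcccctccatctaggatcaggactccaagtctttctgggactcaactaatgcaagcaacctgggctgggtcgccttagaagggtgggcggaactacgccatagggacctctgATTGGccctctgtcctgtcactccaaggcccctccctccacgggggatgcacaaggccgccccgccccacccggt
Plin4: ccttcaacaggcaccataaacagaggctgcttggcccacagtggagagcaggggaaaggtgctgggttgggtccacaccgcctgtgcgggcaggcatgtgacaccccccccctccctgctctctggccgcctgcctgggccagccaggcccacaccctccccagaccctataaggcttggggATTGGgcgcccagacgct
Abhd5: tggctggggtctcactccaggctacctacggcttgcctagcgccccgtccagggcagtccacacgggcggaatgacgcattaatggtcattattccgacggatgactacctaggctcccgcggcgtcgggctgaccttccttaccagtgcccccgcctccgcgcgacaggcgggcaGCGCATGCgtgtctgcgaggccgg
The CCAAT box lay 73 bases before the start site of Plin2, 75 before that of Plin3 and 18 before that of Plin4, counted to its far end, on the plus strand for Plin2 and on the minus strand for the others. Over windows of 250 bases before to 50 bases after a start site, 3 of 13 member windows held CCAAT on either strand, against 37.4% of 32841 windows in the table. The NRF1 core lay in 1 of 13 member windows, against 2.71% of all, and the hexamer AGGTCA, the core of PPARγ elements, in 2 of 13 (Plin2 and Abhd5) against 16.3%. No member window held TTGCGCAA, the C/EBP palindrome (0.183% of all), TATAAA (13.6% of all) or a direct repeat of AGGTCA spaced by 1 base, exact (0.0396% of all) or with up to 1 mismatch in each repeat (2.40% of all). These matches describe letters in short windows and not binding.

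The droplet coat genes came up with differentiation, except Plin3. Plin1, the coat protein typical of fat cells, was almost unread at day 0: 0.118, 0.0403 and 0.516 CPM in control (1 to 13 counts per library) and 0.205, 0.143 and 0.0365 CPM in labelled libraries (1 to 5 counts). At day 7 it stood at 273.4, 232.1 and 246.0 CPM in control and at 917.2, 976.2 and 1085 CPM in labelled libraries. Every day 7 library lay above every day 0 library, and every labelled day 7 library above every control day 7 library. The rise was 10.09 on the log2 scale in control (SE 0.368, edgeR adjusted p = 1.08e-09) and 12.89 in labelled libraries (SE 0.401, edgeR adjusted p = 4.17e-11), and the level at day 7 was 3.96-fold higher with the label (log2 1.99, SE 0.222, edgeR adjusted p = 5.73e-06).

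Plin2, the perilipin of most cells that hold small droplets, was already well read at day 0, at 137.8, 164.1 and 147.5 CPM in control and at 161.2, 215.3 and 265.7 CPM in labelled libraries. At day 7 it reached 535.4, 601.7 and 548.9 CPM in control and 2740, 2794 and 2919 CPM in labelled libraries. The groups overlapped at day 0 and were fully apart at day 7. The log2 rise was 1.91 in control (SE 0.157, edgeR adjusted p = 9.55e-07) and 3.72 in labelled libraries (SE 0.169, edgeR adjusted p = 7.74e-10). At day 7 Plin2 was 5.01-fold higher with the label (log2 2.33, SE 0.159, edgeR adjusted p = 7.35e-08).

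Plin3 (TIP47), a perilipin that moves between cytosol and nascent droplets, took the opposite direction over time. It stood at 216.0, 228.0 and 216.0 CPM in control and 259.1, 227.6 and 233.5 CPM in labelled libraries at day 0, and at 156.8, 145.6 and 174.6 CPM and 146.6, 159.4 and 193.3 CPM at day 7. Both day 7 groups lay wholly below their day 0 groups and overlapped each other. Plin3 fell by 0.47 on the log2 scale in control (SE 0.117, edgeR adjusted p = 0.00529) and by 0.53 in labelled libraries (SE 0.117, edgeR adjusted p = 0.00131). Between labels at day 7 its log2 difference was 0.07 (SE 0.117, edgeR adjusted p = 0.638).

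Plin4 (S3-12), a long perilipin of early droplets in fat cells, stood at 109.6, 104.9 and 110.4 CPM in control and 171.7, 183.3 and 171.5 CPM in labelled libraries at day 0. It stood at 727.1, 622.7 and 710.6 CPM in control and 1617, 1694 and 1796 CPM in labelled libraries at day 7. No group overlapped another, and Plin4 was the one perilipin apart between labels at both days. It was 1.62-fold higher with the label at day 0 (log2 0.70, SE 0.0970, edgeR adjusted p = 0.000267) and 2.48-fold higher at day 7 (log2 1.31, SE 0.0976, edgeR adjusted p = 1.45e-07).

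Cidec, the droplet fusion protein, had the highest counts per kilobase of the 10 genes at day 7. It stood at 0.275, 1.01 and 3.05 CPM in control and 0.860, 0.179 and 0.365 CPM in labelled libraries at day 0, and at 621.4, 571.1 and 600.0 CPM and 3685, 3965 and 4574 CPM at day 7. The day 0 groups overlapped and the day 7 groups did not. The log2 rise was 8.69 in control (SE 0.545, edgeR adjusted p = 7.81e-08) and 13.11 in labelled libraries (SE 0.649, edgeR adjusted p = 1.72e-09). The level at day 7 was 6.82-fold higher with the label (log2 2.77, SE 0.396, edgeR adjusted p = 4.91e-05). The day 0 difference of -1.66 did not pass (SE 0.670, edgeR adjusted p = 0.0889), but it passed at -2.15 without control day 0 replicate 1 (edgeR adjusted p = 0.0135).

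**Figure D1:**
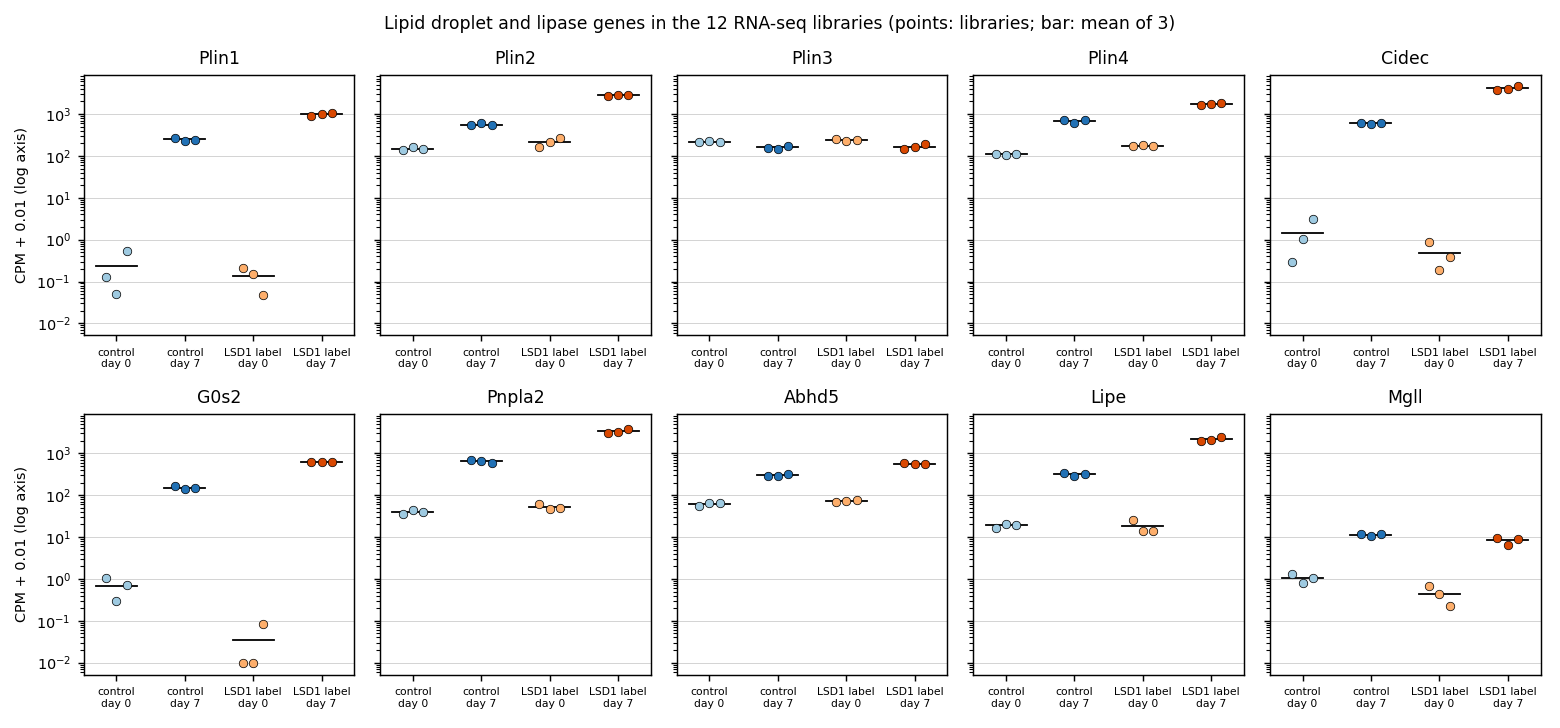
CPM plus 0.01 (log axis) of the 10 genes in each of the 12 RNA-seq libraries, by label and day, with points for libraries and a bar for the mean of 3. In 8 panels all labelled day 7 libraries lie above all control day 7 libraries. In the Plin3 panel they overlap, and in the Mgll panel they lie lower.

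G0s2, the ATGL inhibitor, passed the test in opposite directions between labels at the 2 days. It stood at 1.06, 0.282 and 0.714 CPM in control at day 0 and at 0, 0 and 0.0730 CPM in labelled libraries, which is 52 counts against 2 over 3 libraries each. The ratio of the depth-scaled levels was 27.5, higher in control, with an exact 95% counting interval of 7.23 to 233, and the test passed (log2 -4.51, SE 0.711, edgeR adjusted p = 0.000648). At day 7 it stood at 164.8, 143.5 and 145.3 CPM in control and at 631.4, 622.3 and 628.1 CPM in labelled libraries, a 4.15-fold difference (log2 2.05, SE 0.202, edgeR adjusted p = 1.83e-06). The ratio between day 7 and day 0 in labelled libraries rests on those 2 counts and had a counting interval of 6924 to 206600. These intervals cover counting error only.

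Pnpla2, the triacylglycerol lipase ATGL, stood at 36.1, 44.5 and 39.0 CPM in control and 61.6, 46.5 and 49.6 CPM in labelled libraries at day 0. It stood at 710.9, 648.6 and 584.2 CPM in control and 3101, 3222 and 3748 CPM in labelled libraries at day 7. The groups were apart at both days. The log2 rise was 4.02 in control (SE 0.154, edgeR adjusted p = 1.24e-09) and 6.00 in labelled libraries (SE 0.168, edgeR adjusted p = 2.69e-11). At day 7 the level was 5.18-fold higher with the label (log2 2.37, SE 0.142, edgeR adjusted p = 2.19e-08). At day 0 the log2 difference of 0.40 (SE 0.138, edgeR adjusted p = 0.0491) passed narrowly and was lost in 14 of 18 alternatives, among them RLE scaling (edgeR adjusted p = 0.0584), a replicate block (edgeR adjusted p = 0.0906) and the fit without labelled day 0 replicate 1 (log2 0.27, edgeR adjusted p = 0.0575).

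Abhd5, the ATGL activator CGI-58, rose least among the genes of lipolysis, by 2.27 on the log2 scale in control (SE 0.0978, edgeR adjusted p = 2.90e-09) and by 2.97 in labelled libraries (SE 0.1003, edgeR adjusted p = 6.26e-11). It stood at 56.0, 65.5 and 64.1 CPM in control and 70.6, 72.2 and 75.3 CPM in labelled libraries at day 0, and at 291.7, 285.2 and 315.8 CPM and 583.3, 571.2 and 559.8 CPM at day 7. The labelled libraries lay above control at both days. The day 7 difference was 1.92-fold (log2 0.94, SE 0.0937, edgeR adjusted p = 1.93e-06). The day 0 difference of 0.23 did not pass (SE 0.0940, edgeR adjusted p = 0.0890), although it passed at 0.25 without labelled day 0 replicate 1 (edgeR adjusted p = 0.0300).

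Lipe, the hormone-sensitive lipase HSL, stood at 16.6, 20.5 and 19.9 CPM in control and 26.0, 14.3 and 14.1 CPM in labelled libraries at day 0. It stood at 342.4, 294.8 and 328.2 CPM in control and 1973, 2093 and 2397 CPM in labelled libraries at day 7. At day 0 the labelled replicate 1 lay above all control libraries and its fellows below them. The day 0 difference was -0.07 (SE 0.205, edgeR adjusted p = 0.835) with that library and -0.42 (edgeR adjusted p = 0.00634) without it. Over time it rose by 4.08 in control (SE 0.225, edgeR adjusted p = 2.71e-08) and by 6.89 in labelled libraries (SE 0.255, edgeR adjusted p = 1.29e-10). At day 7 Lipe was 6.70-fold higher with the label (log2 2.74, SE 0.209, edgeR adjusted p = 1.86e-07). Lipe lies on the minus strand and shares 356 exonic bases, 12.8% of its counted transcript, with 4732471J01Rik on the plus strand. Whether counting used strand is not given in the sources used here, so the reads of both genes cannot be told apart there. That gene stood at 39.8 ± 5.61 and 242.0 ± 28.0 CPM (SD, n = 3) at day 7 in control and labelled libraries, far below Lipe in both.

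Mgll, which encodes the lipase of the final step, was the member with the lowest level at day 7, and the lipase gene whose level was not called higher with the label there. It stood at 1.30, 0.806 and 1.03 CPM in control and 0.655, 0.429 and 0.219 CPM in labelled libraries at day 0, and at 12.2, 10.3 and 11.9 CPM and 9.49, 6.56 and 9.21 CPM at day 7. Labelled libraries lay below control at both days. At day 0 the difference passed (log2 -1.27, SE 0.347, edgeR adjusted p = 0.0173). At day 7 it was -0.45 and did not pass (SE 0.245, edgeR adjusted p = 0.129), though it passed when only the 6 day 7 libraries were fitted (log2 -0.46, edgeR adjusted p = 0.0193) and without labelled day 0 replicate 1 (edgeR adjusted p = 0.0324). It rose with time in both labels, by 3.45 in control (SE 0.285, edgeR adjusted p = 9.83e-07) and by 4.28 in labelled libraries (SE 0.317, edgeR adjusted p = 7.05e-08).

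Counted over the 10 genes, 9 rose and 1 fell between day 0 and day 7 in control, where 23.7% of 13356 tested genes were called higher and 24.6% lower. The median log2 difference of the 10 was 3.74, against -0.01 over all genes tested. The labelled libraries gave the same count of 9 and 1, where 32.6% of genes were called higher and 37.2% lower, with a median of 5.14 against -0.07. At day 0, 3 members were higher with the label (Plin2, Plin4 and Pnpla2), 2 were lower (G0s2 and Mgll) and 5 did not pass, beside 12.8% of genes called higher and 13.0% lower. The calls of Plin2, Pnpla2 and Mgll at day 0 were each lost without control day 0 replicate 1 (edgeR adjusted p = 0.101, 0.173 and 0.0695), and those of Plin4 and G0s2 were not. The count of 5 became 3 without control day 0 replicate 1 or 3 and 2 without labelled day 0 replicate 3, and Plin4 and G0s2 were called in each of these fits. With only the 6 day 0 libraries in the fit it became 1, Plin4, and G0s2 fell under the filter on low counts there.

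At day 7, 8 members were higher with the label, none was lower and 2 (Plin3 and Mgll) did not pass, beside 30.2% of all genes called higher and 33.4% lower. The median of the 10 was 2.02 on the log2 scale, against -0.05 over all genes. The comparisons share libraries: the control day 7 libraries enter both the change over time in control and the difference between labels at day 7.

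**Figure D2:**
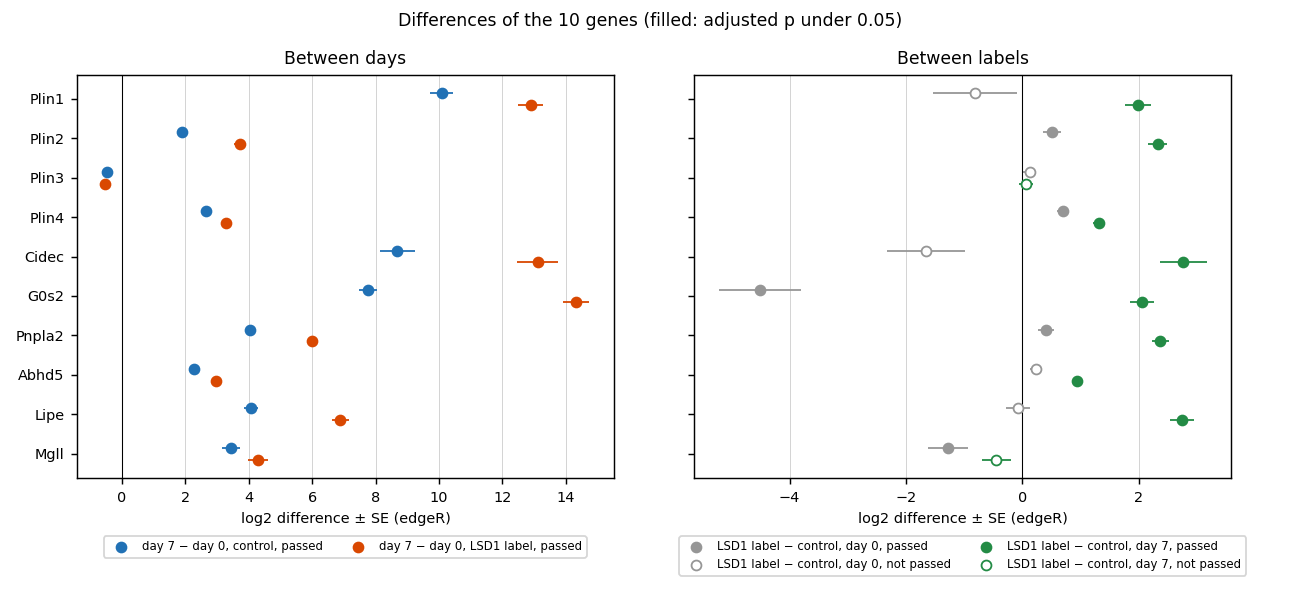
Log2 differences of the 10 genes with their SE from the edgeR fit, between days for each label on the left and between labels at each day on the right. Filled points passed at an adjusted p under 0.05. The label differences at day 7 are 0.94 to 2.77 for the 8 genes that passed, and Plin3 and Mgll stand at 0.07 and -0.45.

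Whether the change over time differed between labels was tested as an interaction. It passed as higher for 8 members and as lower for none, beside 23.9% and 28.1% of all genes. It was 4.43 for Cidec (SE 0.758, edgeR adjusted p = 0.000356), 2.81 for Lipe (SE 0.289, edgeR adjusted p = 5.56e-06) and 1.97 for Pnpla2 (SE 0.195, edgeR adjusted p = 3.87e-06). It was smaller for Abhd5, at 0.71 (SE 0.132, edgeR adjusted p = 0.000662), and for Plin4, at 0.61 (SE 0.136, edgeR adjusted p = 0.00226). The value for G0s2, 6.56, rests on 2 counts at day 0 in labelled libraries. The value for Plin1, 2.80 (SE 0.767, edgeR adjusted p = 0.00823), was 1.37 and did not pass without control day 0 replicate 3 (edgeR adjusted p = 0.225), the library with 13 of the 17 Plin1 counts of its group. The interaction of Mgll was 0.83 (SE 0.424, edgeR adjusted p = 0.119) and passed at 1.22 without labelled day 0 replicate 1 (edgeR adjusted p = 0.0186), and that of Plin3 was -0.06 (edgeR adjusted p = 0.785).

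Levels of different genes were compared per kilobase of the counted transcript. In control at day 0 Plin3 (101.9 ± 3.21 CPM per kb, SD, n = 3) and Plin2 (79.4 ± 7.06) led, followed by Abhd5 (19.7), Plin4 (18.9), Pnpla2 (14.7) and Lipe (6.83), with the other members under 1 CPM per kb. Abhd5 and Plin4 overlapped in that order, as did Cidec and G0s2, and Mgll and Plin1. In control at day 7 the order was Cidec (349.6 ± 14.8), Plin2 (297.8), Pnpla2 (238.5), G0s2 (179.3), Plin1 (130.7), Plin4 (119.7), Lipe (115.5), Abhd5 (94.5), Plin3 (73.6) and Mgll (2.87). Only the neighbours Plin1 and Plin4, and Plin4 and Lipe, overlapped there.

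In labelled libraries at day 7 the order was Cidec (2384 ± 266 CPM per kb), Plin2 (1493), Pnpla2 (1235), Lipe (773.6), G0s2 (744.1), Plin1 (518.2), Plin4 (296.6), Abhd5 (181.5), Plin3 (77.1) and Mgll (2.11), and only Lipe and G0s2 overlapped. Lipe thus stood at rank 7 in control and rank 4 in labelled libraries, while Cidec, Plin2 and Pnpla2 led in both. At day 0 in labelled libraries Plin2 (113.4) and Plin3 (111.2) overlapped at the top, and G0s2 was last at 0.0289. The 10 genes together took 0.0580% ± 0.00165 of counts in control at day 0, 0.395% ± 0.0108 in control at day 7, 0.0830% ± 0.00608 in labelled libraries at day 0 and 1.49% ± 0.0992 in labelled libraries at day 7 (SD, n = 3).

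The make-up of the perilipin mRNA changed from one led by Plin3 and Plin2 to one led by Plin2 and Plin1. Plin3 made up 50.9% ± 1.02 of perilipin counts per kb in control at day 0 and 11.8% ± 1.03 at day 7, and 43.9% ± 6.33 and 3.22% ± 0.301 in labelled libraries (SD, n = 3). Plin1 went from 0.0593% to 21.0% ± 1.62 in control and from 0.0273% to 21.7% ± 0.764 in labelled libraries, so the ranges of its share at day 7 overlapped (19.7 to 22.8% and 21.0 to 22.5%) while its level differed 3.96-fold. Plin2 made up 47.9% ± 3.40 in control and 62.6% ± 1.10 in labelled libraries at day 7. Plin4 made up 19.2% ± 1.42 in control and 12.4% ± 0.0761 in labelled libraries at day 7, so its level was higher and its share lower with the label. The fifth perilipin, Plin5, had 3 to 5 counts per group and at most 0.0135% of the total as a group mean.

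These shares and the ratios given next made a family of 32 exact permutation tests, two-sided, in which 3 against 3 libraries cannot give a p under 0.1. The day 7 shares of Plin2, Plin3 and Plin4 were fully apart between labels (exact permutation p = 0.1, adjusted p = 0.128), and that of Plin1 was not (exact permutation p = 0.5, adjusted p = 0.571). None of the 32 therefore passed.

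**Figure D3:**
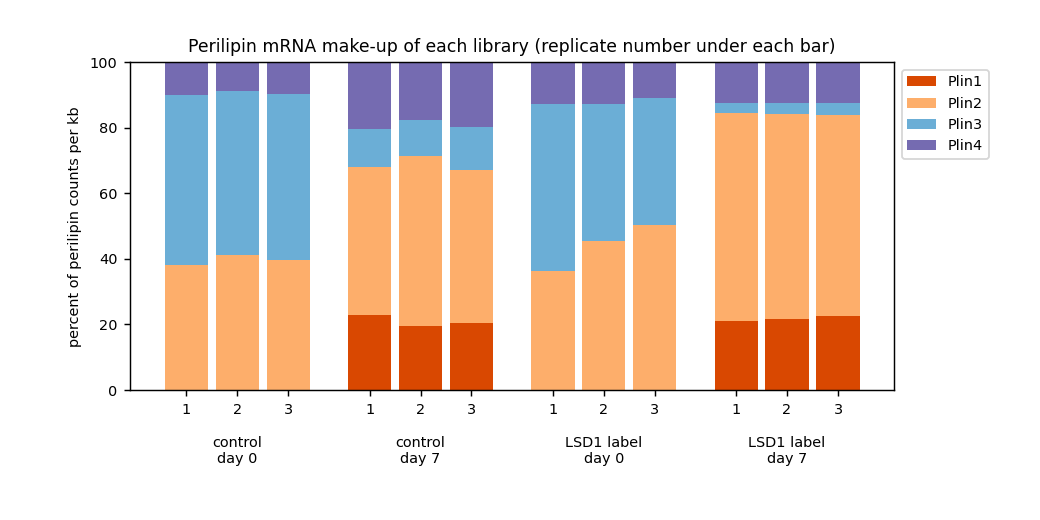
Share of each perilipin in the perilipin counts per kilobase of each of the 12 libraries, as stacked bars that sum to 100 percent. Plin3 makes up 3.22% on average in labelled libraries at day 7 and 50.9% in control at day 0, and Plin1 is at most 0.136% in any library at day 0.

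Ratios between genes of lipolysis were read within each library, per kilobase and with 0.5 counts added. G0s2 to Pnpla2, the ATGL inhibitor over its target, was -4.31 ± 1.09 on the log2 scale in control at day 0 and -0.41 ± 0.0846 at day 7, and -8.97 ± 1.37 and -0.73 ± 0.145 in labelled libraries. At day 7 the libraries read -0.42, -0.49 and -0.32 in control and -0.61, -0.68 and -0.89 in labelled libraries, fully apart, with less G0s2 per Pnpla2 under the label. Plin1 to Abhd5, the droplet anchor over the activator it holds, was 0.62, 0.42 and 0.36 in control and 1.37, 1.49 and 1.67 in labelled libraries at day 7, so the groups were apart with more Plin1 per Abhd5 under the label.

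Lipe to Pnpla2 was -1.10 ± 0.0853 in control at day 0 and -1.04 ± 0.158 at day 7, overlapping in range. In labelled libraries it was -1.62 ± 0.302 at day 0 and -0.68 ± 0.0158 at day 7, where each library lay above each control library. Mgll to Lipe moved furthest between labels at day 7. It was -5.33 ± 0.0247 in control, that is 0.0249 Mgll counts per Lipe count per kb, and -8.53 ± 0.308 in labelled libraries, that is 0.00271. Each of the 4 ratios was fully apart between labels at day 7 (exact permutation p = 0.1, adjusted p = 0.128, n = 3 per group).

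**Figure D4:**
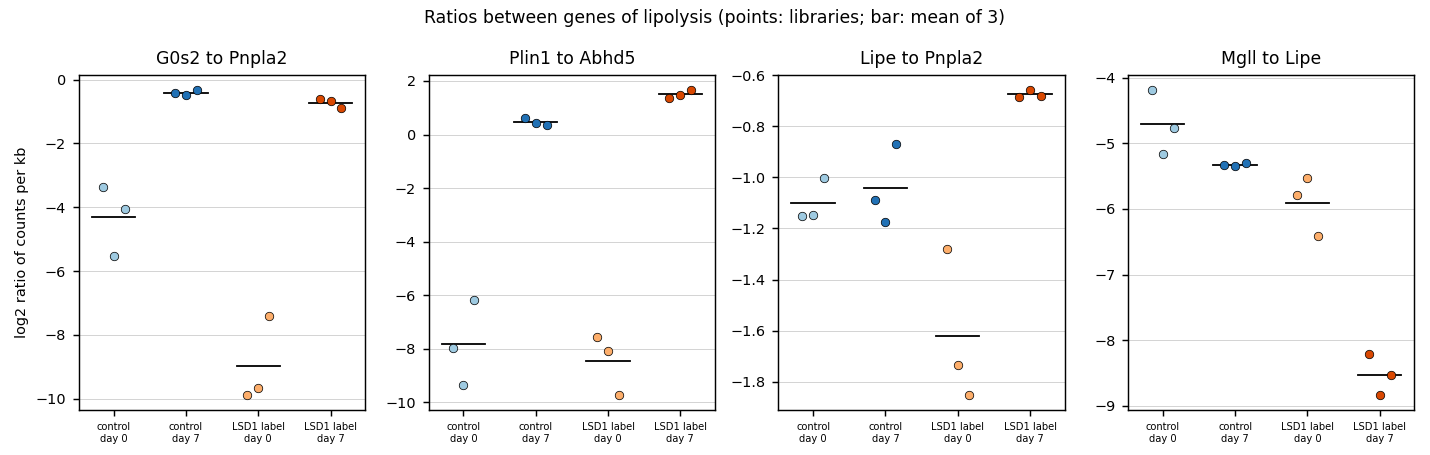
Log2 ratio of counts per kilobase for 4 gene pairs in the 12 libraries, with points for libraries and a bar for the mean of 3. Each panel has its own axis. Mgll to Lipe is near -5.33 in control and -8.53 in labelled libraries at day 7, and the day 0 points of G0s2 and Plin1 spread widely, with 2 to 52 and 10 to 17 counts per group behind them.

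LSD1 peaks lay over 4 of the 10 gene bodies in control at day 0 and over all 10 in labelled cells at day 7. A gene body ran from the first start to the last end in RefSeq, and any overlap of 1 base counted. In control at day 0, 4 of 10 had a peak (Plin3, Plin4, Abhd5 and Lipe), beside 12.6% of 26180 annotated genes and 23.3% of 13112 genes that were also tested in RNA-seq. In control at day 7, 6 of 10 had one (also Plin2 and Pnpla2), beside 32.8% and 60.5%. In labelled cells at day 0 the same 6 genes had one, beside 41.6% and 74.6%, and in labelled cells at day 7 all 10 did, beside 48.1% and 84.1%. The count of 4, which became 2 at a peak score of at least 100, is above the 23.3% of tested genes. A count of 6 is at or under the share of tested genes, and all 10 compares with 84.1%.

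Over start sites the counts were 3, 6, 6 and 9 of 10 in that order, beside 21.8%, 57.6%, 69.7% and 78.2% of tested genes. Mgll was the member with no start-site peak in any list. The lists differ in size (3024, 8303, 13997 and 27221 peaks) and come from 1 sample each, the read depth is not given in the sources used here, and no test between conditions was made.

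Over Plin1 (chr7:79721164-79732776), peaks of labelled cells at day 7 ran from base -378 to base 6598 relative to the start site (chr7:79726178-79733154, score 3100 as deposited by the authors), with others up to the gene's end. Cidec (chr6:113424634-113435760) and G0s2 (chr1:193272160-193273188) likewise had peaks in that list alone, over 97.9% and 100% of the gene body. The highest Cidec score was 3100, a value that 293 peaks of that list had, and the G0s2 score was 2443. These 3 genes had low or unread mRNA at day 0 in both labels and well-read mRNA in control at day 7, where no LSD1 peak was listed over them.

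Plin4 (chr17:56100587-56109782) was the member covered in every list: 91.0% of its body in control at day 0, by 3 peaks, and 100% in the other 3 lists, by a single peak of 12145 to 14308 bases. The peak of labelled cells at day 7 reached into the neighbouring Plin5, and with another peak of 616 bases it covered 23.2% of that gene's body. Plin3 (chr17:56278962-56290511), the perilipin that fell with time, had a start-site peak in each list (2306, 3099, 4619 and 1989 bases wide), and 9.68 to 25.3% of its body was covered. Plin2 (chr4:86656565-86670059) went from no peak in control at day 0 to 14.2% in control at day 7, 7.46% in labelled cells at day 0 and 81.9% in labelled cells at day 7.

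Among the lipases, Pnpla2 (chr7:141455188-141460743) had 52.2% of its body covered in control at day 7 and 100% in labelled cells at day 7, there by 1 peak of 9977 bases. Lipe (chr7:25379527-25395987) had a peak 9.10 kb inside the gene in control at day 0 and 98.1% of its body covered in labelled cells at day 7. Abhd5 (chr9:122351616-122381523) kept a start-site peak of 1076 to 1825 bases in all 4 lists and had 8 peaks over 23.6% of its body in labelled cells at day 7. Mgll (chr6:88724412-88828360) had 6 scattered peaks over 7.08%, in labelled cells at day 7 alone.

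The share of the gene body under peaks was a measure chosen after the values were seen, and it is given as a description. At least 50% of the body was covered in 1, 2, 1 and 7 of the 10 members in the 4 lists, beside 0.648%, 1.75%, 6.92% and 4.16% of tested genes. The 7 in labelled cells at day 7 were Plin1, Plin2, Plin4, Cidec, G0s2, Pnpla2 and Lipe. Among genes in the top 10% by mRNA level in the matching group, the shares were 0.610%, 3.89%, 16.2% and 11.1%. Among those of them with a body of 1 to 30 kb they were 1.12%, 6.79%, 26.9% and 17.0%. These sets are not matched to the members in level. In labelled libraries at day 7 the top 10% began at 176.9 CPM, and the 7 members stood at 627.3 to 4075 CPM. The 3 members below 50% in labelled cells at day 7 were Plin3, Abhd5 and Mgll, and Abhd5, Plin3 and Mgll were also last in level per kb there.

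**Figure D5:**
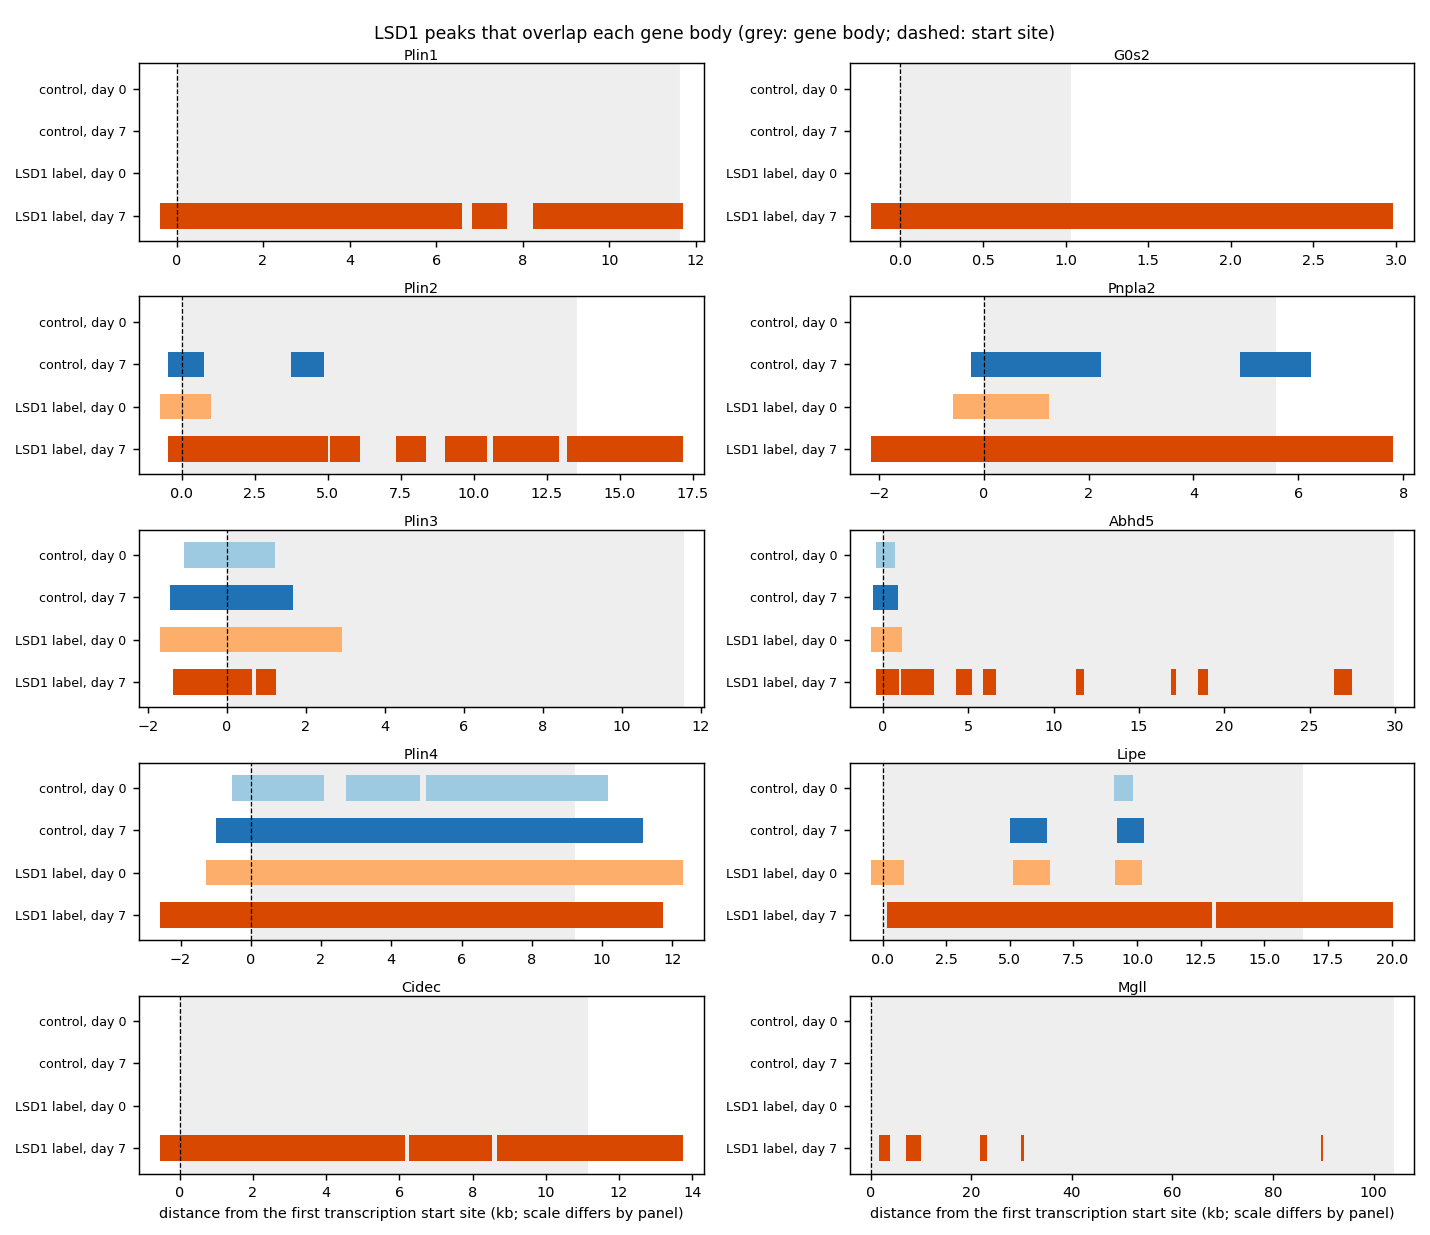
LSD1 peaks over each gene body by peak list, plotted by distance from the first transcription start site in kilobases, with the gene body in grey. Plin1, Cidec, G0s2 and Mgll have peaks in labelled cells at day 7 alone, and Plin4 is covered in all 4 lists.

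Nrf1, a transcription factor, had a peak over the start site of 1 of the 10 genes, Abhd5, at both days. The peaks were chr9:122351226-122352277 at day 0 (score 193.7) and chr9:122351097-122352236 at day 7 (score 309.7), beside 10.8% and 12.3% of tested genes with an Nrf1 peak over a start site. Both span the window shown above that holds the NRF1 core 24 to 17 bases before the start site, and the LSD1 start-site peaks of Abhd5 overlap them. Title and genotype label disagree for the day 7 Nrf1 sample (LSD1 cells in one, control in the other), so the Nrf1 lists were read by day only.

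Genes whose profile was most like that of a member were taken by the highest Pearson correlation of log2 CPM over the 12 libraries, among 9525 genes with at least 10 CPM on average. The libraries fall into 4 groups, which all these profiles share. For Plin1 they were Gpd1 (0.997), Fabp4 (0.996) and Cd36 (0.996), for Cidec Cd36 (0.997), for Lipe 4732471J01Rik (0.999), which shares exonic bases with it, and Agpat2 (0.998), and for Pnpla2 Pcx (0.998). Plin3 was most like Plod3 (0.964), Itga3 (0.959) and Mroh1 (0.950), and Mgll most like Gprc5b (0.988). The mean profile of the 10 was most like Cpm (0.998).

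Of 17 other droplet proteins 13 were tested, and 7 were higher and 1 lower over time in control (median 0.45), beside 23.7% and 24.6% of all genes tested. In labelled libraries 9 were higher and none lower (median 0.77), beside 32.6% and 37.2%. At day 7, 6 were higher and 2 lower with the label (median 0.25), beside 30.2% and 33.4%, and at day 0, 2 were higher and 1 lower, beside 12.8% and 13.0%. Hilpda, another ATGL inhibitor, rose by 1.25 in control (SE 0.152, edgeR adjusted p = 2.54e-05) and was higher with the label at day 7 by 1.48 (SE 0.149, edgeR adjusted p = 2.15e-06). Aqp7, the glycerol channel, rose by 6.76 in control (SE 0.376), from 8 counts over the day 0 libraries, and was higher with the label by 1.63 at day 7 (SE 0.229, edgeR adjusted p = 4.13e-05). Fitm2, which helps droplets bud, rose by 2.58 in control (SE 0.208) and 3.98 in labelled libraries (SE 0.219). Hsd17b11, a droplet-bound dehydrogenase, was lower with the label at day 7 by -0.78 (SE 0.188, edgeR adjusted p = 0.00278).

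Of 18 other lipases and hydrolases 16 were tested. Over time 7 were higher and 2 lower in control, beside 23.7% and 24.6% of all genes, and 10 higher and 3 lower in labelled libraries, beside 32.6% and 37.2%. With the label at day 7, 9 were higher and 6 lower (median 0.76), beside 30.2% and 33.4%, so the share lower was near that of all genes. Lpl, which frees fatty acids from blood lipoproteins, rose by 2.74 in control (SE 0.141) and 4.13 in labelled libraries (SE 0.150). Abhd6, which also cleaves monoacylglycerol, was higher with the label at day 7 by 1.58 (SE 0.162, edgeR adjusted p = 2.52e-06), the opposite sign to Mgll. The lysosomal acid lipase Lipa was higher by 1.11 (SE 0.140, edgeR adjusted p = 1.63e-05). Ces1f, a carboxylesterase, was lower by -2.46 (SE 0.287, edgeR adjusted p = 8.17e-06), and Nceh1, a neutral cholesterol ester hydrolase, by -1.47 (SE 0.212, edgeR adjusted p = 5.15e-05). At day 0, 2 of the 16 were higher and 1 lower with the label, beside 12.8% and 13.0% of all genes, so neither share was above that of all genes.

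Of 18 genes of the hormonal control of lipolysis 17 were tested, and 10 were higher and 3 lower over time in control, 9 higher and 3 lower in labelled libraries. Those shares lie beside 23.7% higher and 24.6% lower of all genes in control and 32.6% and 37.2% in labelled libraries. Receptors that restrain lipolysis were called higher in control: Hcar2 went from 0 counts over the 3 day 0 libraries to 503 counts (7.38 ± 0.493 CPM, SD, n = 3), and Adora1 from 2 counts to 293 (4.27 ± 1.19 CPM). With the label at day 7, 5 were higher and 4 lower (median 0.01), beside 30.2% and 33.4%, so neither share was above that of all genes. The phosphodiesterases that break down cAMP, Pde4d and Pde3b, were higher by 2.89 (SE 0.113, edgeR adjusted p = 6.40e-10) and 1.51 (SE 0.223, edgeR adjusted p = 6.80e-05), and the adenylyl cyclases that make it, Adcy3 and Adcy6, were lower by -2.29 (SE 0.313, edgeR adjusted p = 3.30e-05) and -0.76 (SE 0.104, edgeR adjusted p = 3.33e-05). At day 0, 1 of the 17 was higher and 4 were lower with the label, beside 12.8% and 13.0% of all genes.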

How the data were processed

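RNA was measured in 12 libraries and LSD1 or Nrf1 binding in 6 ChIP-seq samples of 3T3-L1 cells. The authors deposited raw read counts, 1 value per RefSeq transcript, in files without a header. The build was mm10, and TopHat2, HOMER, edgeR and DESeq 1.8.3 are named for RNA and Bowtie2 and MACS 1.41 for ChIP, per the submitters' processing notes. The deposited peak lists give a score per peak, which is the authors' own value. Peak calling cut-offs and ChIP-seq depth are not given in the sources used here. The 6 input samples were not used here.

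Of 30521 transcript rows, 1200 had no symbol (0.897% of counts) and were kept as features of their own. Isoforms shared reads, so the transcript with most counts on average stood for its gene and isoforms were not compared. This left 24346 genes. edgeR 4.0.16 in R 4.3.3 was used with filterByExpr, TMM scaling and robust quasi-likelihood tests, with all 12 libraries and 4 groups in 1 fit. All 10 genes passed the filter among 13356 tested, over which p-values were adjusted by Benjamini-Hochberg with a threshold of 0.05. The fit was tested on simulated data. CPM used TMM-scaled library sizes. Coordinates are 1-based on GRCm38.p6, the assembly of mm10. Alternatives were RLE scaling, DESeq2 1.42.0, no filter on low counts, summed transcripts, only the libraries compared, a replicate block and each library left out, and for peaks a score of at least 100, 5 kb upstream added, and other rules of overlap.

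The members, lists and tests were chosen with earlier results of these data known. All 10 genes are named, and other genes come from 3 lists, up to 3 per direction by smallest adjusted p, and from the 3 most alike profiles.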

Additional observations from a re-analysis of the deposited data

Results flagged for a closer look

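The change over time differed between the labels, by the interaction test of edgeR, for 8 of the 10 genes and for Kdm1a. The interaction was 2.80 for Plin1, 1.81 for Plin2 and 0.61 for Plin4 among the perilipins. It was 4.43 for Cidec and 6.56 for G0s2. It was 1.97 for Pnpla2, 0.71 for Abhd5 and 2.81 for Lipe among the genes of lipolysis. Kdm1a stood at -0.57. The values of Plin1, Cidec and G0s2 rest on few counts at day 0.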

How the results depend on the processing

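Over all alternatives for the 10 genes, 858 values stayed called or stayed not called, 23 kept direction and lost the call, and 7 kept direction and gained it. No value that passed in either fit changed sign. Sign changes of values that passed in neither fit were not counted apart. All 8 calls at day 7 between labels and all calls over time held in each alternative. The difference at day 0 was the fragile one: the 5 members called there became 1 when only the 6 libraries compared were fitted, where G0s2 fell under the filter, and 2 to 6 with a library left out, while the genes called, 3449 in the report's fit, became 1862 and 2172 to 6565. The 6565 came without labelled day 0 replicate 1 and the 2172 without control day 0 replicate 3, and the cause was not tested. Replicate numbers did not pair the libraries, since correlations of deviations between same-numbered libraries ran from -0.249 to 0.114. With a replicate block, 4 members were called at day 0 (Pnpla2 lost, edgeR adjusted p = 0.0906), and 10, 10, 8 and 8 in the other comparisons as without it. With a peak score of at least 100, 2 members had an LSD1 peak in control at day 0 instead of 4.

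Small differences changed sign. The Plin1 share between labels at day 0 (-0.0320 percentage points) ranged from -0.0567 to 0.00633 with a library left out. The Plin4 share between days in labelled libraries (0.397) was -1.81 with transcripts summed and ranged from -0.265 to 0.730 with a library left out. The Plin1 to Abhd5 ratio between labels at day 0 ranged from -1.39 to 0.20 (log2), and Lipe to Pnpla2 over time in control from -0.030 to 0.12. Depth limits Plin1, Cidec, G0s2 and Mgll at day 0, and the peak lists have no replicates.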
